A study of Mus musculus with 9 samples.

Results

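A set of 34 genes of sterol and fatty acid synthesis were followed in long-term haematopoietic stem cells (LT-HSCs) of 3 mouse genotypes. They were taken by symbol as enzymes and regulators of the SREBP pathway: 18 enzymes of the cholesterol branch, 9 of the fatty acid branch, 5 factors and sensors, and the SREBP-responsive genes Stard4 and Lpin1. All 34 were among the 22322 genes of the deposited table, and 33 were among the 10866 with a mean of at least 1 FPKM (fragment counts scaled to transcript length and library size) that were tested. Scd1 was the member below that limit.

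Mice were of strain C57BL/6, between 6 and 8 weeks old, and the stem cells were sorted from their bone marrow by 6 surface features (CD150+, CD48-, CD135-, c-Kit+, Sca-1+, Lin-). The groups were 3 mice labelled Cxcl10-/- (without the chemokine CXCL10), 3 labelled Cxcr3-/- (without its receptor CXCR3) and 3 wild-type (WT) mice, with 1 library of 500 to 800 sorted cells per mouse. The sources used here give neither the construction of the alleles nor the sex of the mice or any day of sorting, so genotype and day cannot be told apart. In bulk RNA of this kind, fewer cells of a type and less RNA per cell cannot be told apart either.

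The libraries held between 12098498 and 17904629 expected counts. Cxcl10 itself had no count in the Cxcl10-/- libraries, against 112, 553 and 176 counts in Cxcr3-/- and 36, 84 and 3 counts in WT. Cxcr3 had 8 counts in WT replicate 3 and none in the other libraries, so its level checks no label. All 10 LT-HSC markers examined were detected in every library, with summed levels of 652.5 to 742.8 FPKM in Cxcl10-/-, 635.7 to 701.7 in Cxcr3-/- and 634.8 to 745.8 in WT. Of these, Kit, a gene of the sort itself, was lower in Cxcl10-/- than in WT (log2 fold change -0.75, edgeR, adjusted p = 0.026). Single markers varied more than the sums, with edgeR log2 fold changes from -1.870 to 0.905 over the 10 in that comparison. At an unadjusted p under 0.05, 2 were lower and 1 was higher, beside 12% and 12.3% of all tested genes. In Cxcr3-/- against Cxcl10-/- edgeR called 1 of the 10 higher and 0 lower, beside 5.10% and 5.41% of all tested genes.

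The Cxcl10-/- libraries stood apart from the other 6 in more than the genes described here. By edgeR, 8 of 14 markers of G2 and mitosis were lower in Cxcl10-/- than in WT, with summed levels of 70.48 to 134 FPKM in Cxcl10-/-, 350.3 to 494.4 in Cxcr3-/- and 282.2 to 420.9 in WT. All 8 tested immediate-early genes were higher, with sums of 314.3 to 608.8 FPKM in Cxcl10-/-, 33.6 to 43.35 in Cxcr3-/- and 40.1 to 49.92 in WT. Endothelial markers (6 of 12 higher) summed to 476.8 to 680.8 FPKM in Cxcl10-/-, 46.64 to 77.94 in Cxcr3-/- and 61.76 to 80.17 in WT. The 9 stromal and bone markers summed to 85.11 to 324.2 FPKM in Cxcl10-/-, 1.71 to 3.25 in Cxcr3-/- and 2.15 to 6.91 in WT. Only 4 of the 9 reached a mean of 1 FPKM and were tested, and 3 were called higher. Given these sums, the list met that limit largely through Cxcl10-/-, so the filter favoured calls in that direction. The 9 adipocyte markers summed to 6.06 to 54.52 FPKM in Cxcl10-/-, 2.72 to 7.95 in Cxcr3-/- and 1.33 to 5.9 in WT. The 4 that were tested all had positive log2 fold changes in Cxcl10-/- against WT (median 2.11), a direction the filter can favour in the same way. Adipoq, the fat cell hormone adiponectin, passed edgeR's test (adjusted p = 0.046), at 1.37, 21.80 and 0.05 FPKM in Cxcl10-/-, 0.12, 0.15 and 0 FPKM in Cxcr3-/-, and 0 FPKM in each WT library. Adipoq reached the 1 FPKM limit only through Cxcl10-/-, chiefly replicate 2. Lep, Cidec and Plin4, also typical of fat cells, were at 0 in all Cxcl10-/- libraries and at 0.2 FPKM or less in the other 6. Monocyte and macrophage markers (1 of 6 tested higher) summed to 427.9 to 479.3 FPKM in Cxcl10-/-, 224.3 to 407.6 in Cxcr3-/- and 559.6 to 687.2 in WT. Counts on the mitochondrial genome made up 3.57 to 4.13% of the Cxcl10-/- libraries, 10.2 to 11.2% of Cxcr3-/- and 12.6 to 13.1% of WT. Most of these values move with the Cxcl10-/- genotype, as do the differences below. The adipocyte sums overlapped those of Cxcr3-/-, and the monocyte and macrophage sums lay between Cxcr3-/- and WT. What part any of these values has in the differences below was not tested.

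Cells make cholesterol from acetyl-CoA through mevalonate, farnesyl diphosphate, squalene and lanosterol, and make fatty acids from the same acetyl-CoA through malonyl-CoA. Both branches are under transcription factors called SREBPs, which are held in the endoplasmic reticulum by SCAP and the INSIG proteins when sterols are plentiful and travel to the nucleus when sterols fall. SREBP-2 acts mainly on the cholesterol branch and SREBP-1c mainly on the fatty acid branch. Dividing cells need both products for new membrane.

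In Cxcl10-/- LT-HSCs, 4 enzymes of the cholesterol branch fell against WT: Idi1, Msmo1, Sqle and Nsdhl. They fell 5.80-fold, 3.94-fold, 3.44-fold and 5.19-fold in edgeR's fit. None of the 33 tested members passed as higher. That makes 4 of 33 called lower and none higher, beside 3.70% and 3.52% of all tested genes. No member of the fatty acid branch, and no SREBP factor or sensor, passed the same test. In Cxcr3-/- LT-HSCs no member passed against WT in either direction.

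**Figure D1:**
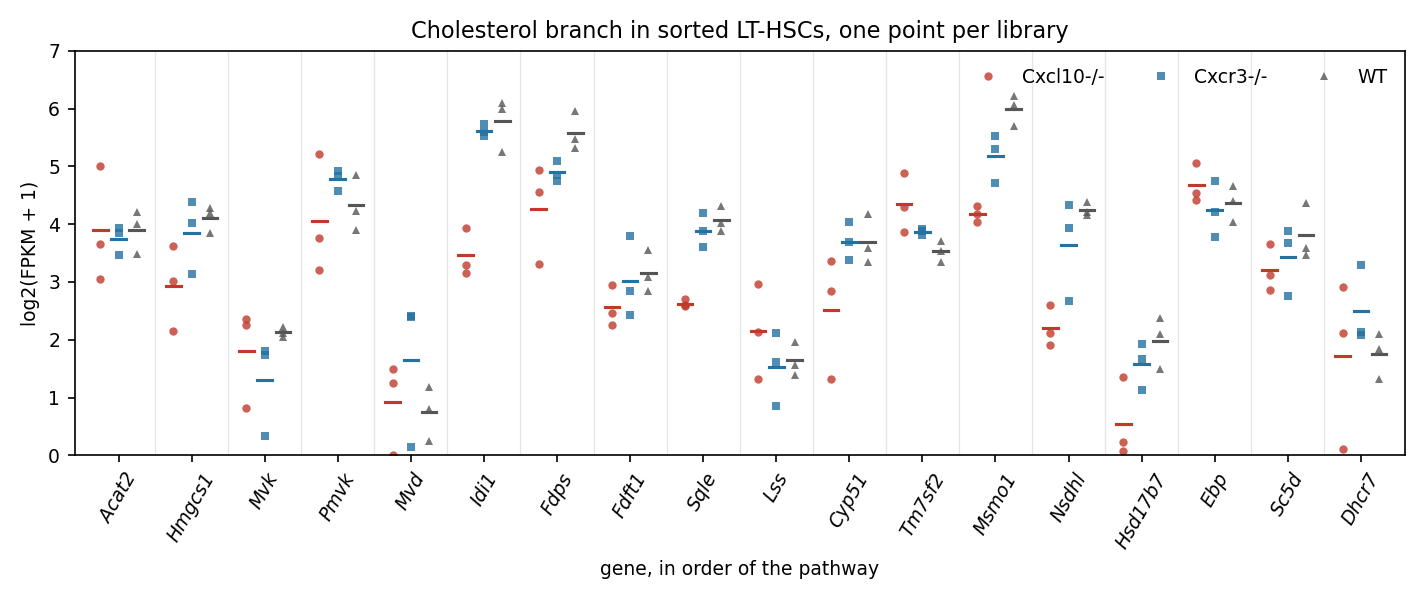
Levels of the 18 cholesterol branch enzymes as log2(FPKM + 1), in the order of the pathway; each point is 1 library (3 per genotype) and each bar the mean of a genotype. Idi1, Sqle, Msmo1 and Nsdhl show the Cxcl10-/- libraries (10.31, 5.18, 17.17 and 3.71 FPKM on average) below all WT libraries.

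Idi1 (chr13:8885501-8892451, plus strand; GENCODE M21, GRCm38) encodes the isomerase that turns isopentenyl diphosphate into dimethylallyl diphosphate, the starter unit of all isoprenoids. It stood at 14.24, 7.88 and 8.82 FPKM in Cxcl10-/-, 45.09, 51.86 and 47.08 FPKM in Cxcr3-/-, and 67.67, 62.90 and 37.11 FPKM in WT. The highest Cxcl10-/- library lay far below the lowest of the other 6. The log2 fold change of Cxcl10-/- against WT was -2.54 ± 0.28 (SE; edgeR, adjusted p = 0.00126). With the correction for GC content and length it was -1.73 (adjusted p = 0.00737), a move of more than 1.5 times in fold.

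Msmo1 (chr8:64718139-64733792, minus strand) encodes the methylsterol monooxygenase that oxidises the 4-methyl groups left on the sterol ring. Its levels were 18.99, 15.44 and 17.07 FPKM in Cxcl10-/-, 25.14, 44.95 and 38.34 FPKM in Cxcr3-/-, and 73.55, 65.72 and 50.85 FPKM in WT. The 3 genotypes did not overlap at all, with Cxcr3-/- between Cxcl10-/- and WT. Against WT the log2 fold change was -1.98 ± 0.26 (SE; edgeR, adjusted p = 0.00314) in Cxcl10-/- and -0.87 ± 0.26 in Cxcr3-/- (adjusted p = 0.642).

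Sqle (chr15:59315077-59331192, plus strand), which encodes squalene epoxidase, a rate-limiting oxygenase of the branch, varied little within Cxcl10-/-. It had 4.96, 5.05 and 5.53 FPKM there, against 13.73, 17.23 and 11.13 FPKM in Cxcr3-/- and 18.90, 15.26 and 13.79 FPKM in WT. All Cxcl10-/- libraries were lower than the other 6. The log2 fold change of Cxcl10-/- against WT was -1.78 ± 0.31 (SE; edgeR, adjusted p = 0.00785).

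Nsdhl (chrX:72918557-72958514, plus strand) encodes the sterol dehydrogenase that works directly after MSMO1 in removing the 4-methyl groups. It had 5.07, 2.74 and 3.32 FPKM in Cxcl10-/-, 5.40, 14.21 and 19.18 FPKM in Cxcr3-/-, and 19.87, 16.87 and 17.52 FPKM in WT. Cxcr3-/- replicate 1 was close to the Cxcl10-/- libraries, while the other 2 Cxcr3-/- libraries were near WT. The log2 fold change of Cxcl10-/- against WT was -2.38 ± 0.46 (SE; edgeR, adjusted p = 0.0135). With WT replicate 1 left out Nsdhl missed the threshold (adjusted p = 0.0567), as it did with WT replicate 2 left out (0.0528), whereas Idi1, Sqle and Msmo1 passed under all 19 alternative settings, each leave-one-out fit included.

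Hmgcs1, Fdps and Cyp51 had lower means in Cxcl10-/- than in WT but did not pass edgeR's threshold. Hmgcs1, the synthase that makes HMG-CoA and so opens the mevalonate pathway, had 3.44, 7.08 and 11.31 FPKM in Cxcl10-/-, 19.76, 15.25 and 7.85 FPKM in Cxcr3-/-, and 17.30, 18.35 and 13.41 FPKM in WT. The Cxcl10-/- libraries lay under the WT libraries, but overlapped Cxcr3-/- (log2 fold change against WT -1.27 ± 0.44, SE; adjusted p = 0.103 in edgeR and 0.0414 in DESeq2). Fdps, which makes farnesyl diphosphate, had 8.89, 29.58 and 22.59 FPKM in Cxcl10-/-, 25.88, 33.32 and 27.70 FPKM in Cxcr3-/-, and 61.40, 43.42 and 38.65 FPKM in WT. Both knockouts lay entirely below WT for Fdps. Its log2 fold change in Cxcl10-/- was -1.32 ± 0.40 (SE; adjusted p = 0.0704 in edgeR, 0.0456 in limma and 0.0189 in DESeq2), and in Cxcr3-/- -0.79 ± 0.40 (edgeR, adjusted p = 0.843). Cyp51, the lanosterol demethylase, had 1.51, 9.29 and 6.17 FPKM in Cxcl10-/-, 15.32, 9.37 and 11.84 FPKM in Cxcr3-/-, and 10.98, 16.97 and 9.12 FPKM in WT. Here 1 Cxcl10-/- library was just above the lowest WT library (log2 fold change -1.22 ± 0.51, SE; edgeR, adjusted p = 0.172).

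The other 11 enzymes of the branch did not pass, and they did not share a direction. Hsd17b7, the 3-ketosteroid reductase that follows NSDHL, averaged 0.59 ± 0.83 FPKM in Cxcl10-/- and 3.08 ± 1.20 FPKM in WT (SD, n = 3 each) without overlap. At that low level its log2 fold change of -2.43 had an SE of 0.98 (edgeR, adjusted p = 0.168). Sc5d (a sterol desaturase) and Fdft1 (squalene synthase) had log2 fold changes of -0.85 and -0.80 in Cxcl10-/-. Mvk and Pmvk, the kinases of mevalonate and phosphomevalonate, and Mvd, the decarboxylase after them, had -0.19, -0.14 and 0.46. Mvd averaged only 1.07 ± 0.95 FPKM in Cxcl10-/- and 0.74 ± 0.54 FPKM in WT (SD, n = 3 each). Acat2, the thiolase at the head of the branch, had 0.06, and Ebp, the sterol isomerase, had 0.23. Positive values were also found for Lss (lanosterol synthase, 1.00), Tm7sf2 (a sterol reductase, 0.78) and Dhcr7 (the 7-dehydrocholesterol reductase, 0.37). Tm7sf2 was higher without overlap, at 13.61 to 28.72 FPKM in Cxcl10-/- against 9.22 to 12.07 FPKM in WT (edgeR, adjusted p = 0.331).

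**Figure D2:**
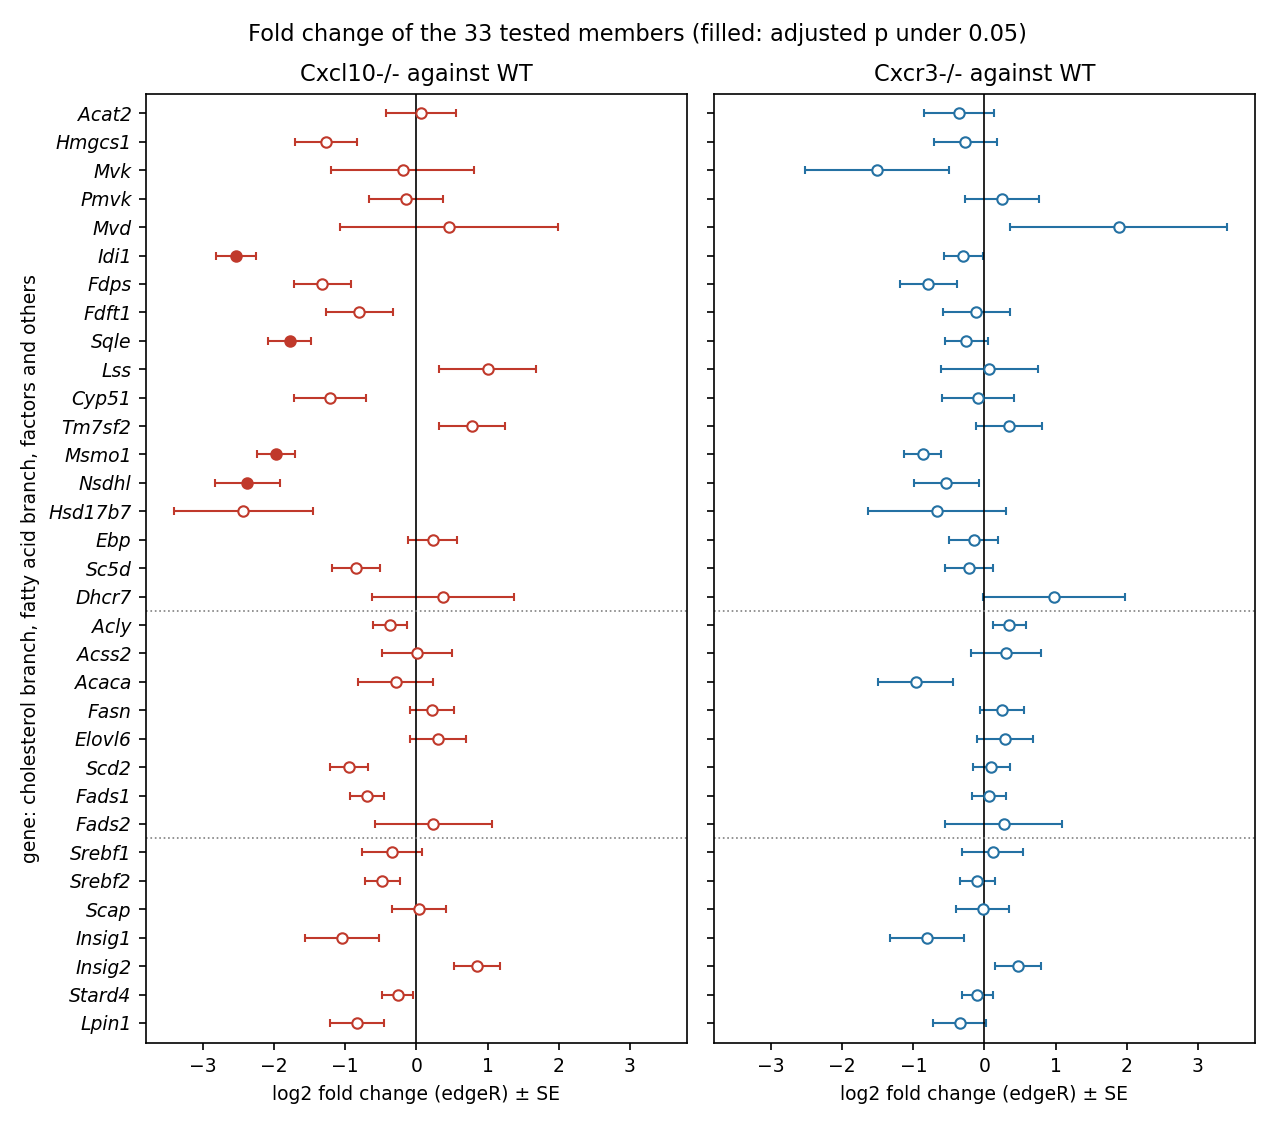
Log2 fold change ± SE (edgeR) of the 33 tested members in Cxcl10-/- against WT (left) and Cxcr3-/- against WT (right); filled points have an adjusted p under 0.05, and dotted lines part the cholesterol branch, the fatty acid branch, and the factors with Stard4 and Lpin1. The 4 filled points, Idi1, Sqle, Msmo1 and Nsdhl, are all in the left panel, from -2.54 to -1.78.

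Counted over the whole branch, 12 of 18 cholesterol branch enzymes had a negative log2 fold change in Cxcl10-/- against WT, beside 46.3% of all tested genes. The branch median was -0.83, beside a median of 0.06 over all tested genes. At an unadjusted p under 0.05 edgeR listed 9 of the 18 as lower and none as higher. Over the 33 members 12 were lower and 1 was higher at that level, beside 12% and 12.3% of all tested genes. Non-overlap gave a like picture: 9 of 33 members lay lower and 2 higher in Cxcl10-/- than in every WT library, beside 11.9% and 18.3% of all tested genes. With limma on log2(FPKM + 1), 5 members passed as lower and none as higher, with 3.18% of all genes called lower and 6.10% higher. With DESeq2 it was 7 lower and none higher. Of the 10782 genes to which DESeq2 gave an adjusted p, 7.23% were called lower and 6.66% higher. The additional genes were Fdps in limma, and Fdps, Hmgcs1 and the fatty acid desaturase Scd2 in DESeq2.

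The log2 fold changes of Cxcl10-/- against WT rose with the GC content of the genes, with a Spearman correlation of 0.444 across the 10856 genes with a GC value, which are not independent replicates. Idi1 (41.1% GC), Msmo1 (44.1%), Nsdhl (45.5%) and Sqle (48.7%) all lay under the median of 49.5%. With the correction for GC content and length all 4 still passed edgeR's test in Cxcl10-/- against WT, at -1.73, -1.45, -1.96 and -1.59 on the log2 scale. The correction moved the median log2 fold change of all genes to 0.23, against 0.06 without it, and the calls over all genes to 605 higher and 149 lower, against 383 higher and 402 lower without it. In Cxcr3-/- against Cxcl10-/- it moved that median to -0.19, against -0.05 without it, and the calls to 274 higher and 779 lower, against 554 higher and 588 lower without it. In GENCODE M21 no other gene overlaps Msmo1, Nsdhl or Sqle. Idi1, Hmgcs1 and Cyp51 each overlap 1 annotated gene on the opposite strand. Since strand was not stated for the counting, reads of such overlapping genes cannot be told apart. Fdps overlaps 2 annotated genes, both on its own strand.

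The promoters of the 4 genes were compared where a sequence was at hand, because the members that fell share a pathway and a known mode of control. The RefSeq promoter table (build GRCm38.p6) holds 27 of the 34 members. It has no entry for Sqle, Fdps, Fdft1, Stard4, Scd1, Scd2 or Fads1. In the 250 bases before each start, 3 motifs were searched on both strands: CCAAT, the box bound by NF-Y; GGGCGG, a box bound by Sp1; and TCACNCCAC, the sterol regulatory element of SREBPs. Only exact matches were counted, and variant forms of a motif were not sought. Occurrences of different motifs did not overlap in any member. Nsdhl is shown whole as a called gene. Hmgcs1 is shown as the only one of the 27 members with an exact match to TCACNCCAC, a choice made after its sequence was seen. Capitals mark CCAAT or its reverse complement ATTGG and, in Hmgcs1, the match TCACCCCAC.
Nsdhl, chrX:72918271-72918520, plus strand: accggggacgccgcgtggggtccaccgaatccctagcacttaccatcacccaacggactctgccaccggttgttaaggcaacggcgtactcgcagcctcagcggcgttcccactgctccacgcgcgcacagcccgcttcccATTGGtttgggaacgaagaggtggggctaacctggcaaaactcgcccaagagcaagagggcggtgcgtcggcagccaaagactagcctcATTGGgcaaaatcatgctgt
Hmgcs1, chr13:119690101-119690350, plus strand: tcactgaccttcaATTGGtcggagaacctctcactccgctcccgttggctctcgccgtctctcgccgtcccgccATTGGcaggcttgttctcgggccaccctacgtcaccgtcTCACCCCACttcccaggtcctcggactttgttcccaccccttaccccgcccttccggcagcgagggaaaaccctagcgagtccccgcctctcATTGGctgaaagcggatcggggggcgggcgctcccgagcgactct
For Idi1 and Msmo1 the GENCODE M21 gene begins further upstream and covers 105 and 214 of the 250 bases, so windows around their CCAAT boxes nearest the RefSeq start are shown, on the strand of the gene.
Idi1, chr13:8885551-8885575, plus strand: cctccagctgATTGGcgagcccggg
Idi1, chr13:8885582-8885605, plus strand: ccaaggtgccATTGGctggcgacc
Msmo1, chr8:64733619-64733643, minus strand: gtggggcggaCCAATtacgacaggc

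Of the 15 cholesterol branch genes with a promoter entry, 14 held CCAAT and 9 held it more than once. The exception was Acat2. CCAAT was in 2 of 6 fatty acid branch promoters, in 41.0% of the 8759 tested genes with an entry and in 37.5% of all 27025 genes in the table. GGGCGG was in 14 of 15 cholesterol branch promoters and 3 of 6 fatty acid branch promoters, beside 63.9% of tested genes and 35.4% of all. TCACNCCAC was in Hmgcs1 alone of the 27 members, beside 1.23% of tested genes. Cholesterol branch members that did not pass any test held CCAAT as well, among them Ebp, Lss and Tm7sf2. A match describes the letters of these windows and is not a measured binding site. The lack of an exact match does not show that an element is absent.

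The fatty acid branch did not move as a group in Cxcl10-/- cells. Of its 8 tested members 4 had a positive and 4 a negative log2 fold change against WT, with a median of -0.14 (-0.40 without Cxcl10-/- replicate 1), and none passed edgeR's test (2 lower at an unadjusted p under 0.05; none in limma and 1 lower in DESeq2). Scd2, a delta-9 desaturase, came nearest. It had 31.63, 26.92 and 12.58 FPKM in Cxcl10-/-, 49.87, 39.82 and 52.73 FPKM in Cxcr3-/-, and 42.61, 46.06 and 39.01 FPKM in WT. All Cxcl10-/- libraries were below the other 6 (log2 fold change against WT -0.95 ± 0.26, SE; adjusted p = 0.0506 in edgeR, 0.0818 in limma and 0.00475 in DESeq2). Scd1, the desaturase of liver and fat, was near the floor, at 0, 0.06 and 0.40 FPKM in Cxcl10-/-, 0.73, 0.31 and 1.15 FPKM in Cxcr3-/-, and 1.86, 0.57 and 0.08 FPKM in WT.

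Fads1, the delta-5 desaturase, averaged 12.17 ± 3.06 FPKM in Cxcl10-/-, 20.19 ± 1.86 FPKM in Cxcr3-/- and 18.44 ± 1.38 FPKM in WT (SD, n = 3 each). It too was lower in all Cxcl10-/- libraries, with a log2 fold change of -0.70 ± 0.24 against WT that did not pass (edgeR, adjusted p = 0.0994). Fasn, the fatty acid synthase, was at 3.67 ± 0.27 FPKM in Cxcl10-/-, 3.61 ± 0.27 in Cxcr3-/- and 2.96 ± 1.01 in WT. Its log2 fold change against WT was 0.21 ± 0.31 in Cxcl10-/- and 0.24 ± 0.31 in Cxcr3-/- (SE). Acly, which makes cytosolic acetyl-CoA from citrate, averaged 23.50 ± 8.04 FPKM in Cxcl10-/-, 37.81 ± 4.42 FPKM in Cxcr3-/- and 28.45 ± 1.99 FPKM in WT. Cxcr3-/- was above both other genotypes for Acly without overlap, but neither difference passed edgeR's test (adjusted p = 0.907 against WT and 0.0755 against Cxcl10-/-).

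**Figure D3:**
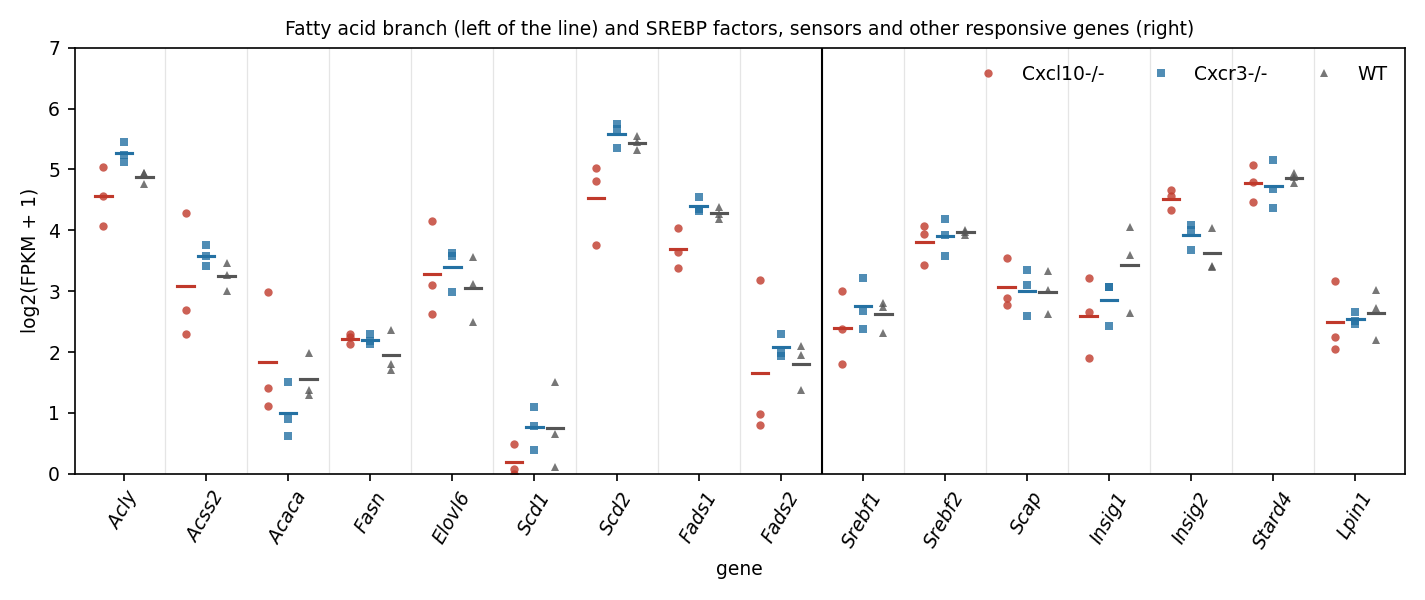
Levels of the 9 fatty acid branch genes (left of the line) and of Srebf1, Srebf2, Scap, Insig1, Insig2, Stard4 and Lpin1 (right) as log2(FPKM + 1); points are libraries, 3 per genotype, and bars are means. Scd2 and Fads1 are lowest in Cxcl10-/-, Insig2 is highest there, and 1 Cxcl10-/- library lies far above its 2 fellows for Acss2, Acaca, Elovl6 and Fads2.

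Cxcl10-/- replicate 1 stood above the other 2 Cxcl10-/- libraries for several genes of this branch. In that library Acss2, which makes acetyl-CoA from acetate, had 18.41 FPKM against 5.43 and 3.94 in replicates 2 and 3. Elovl6, an elongase, had 16.70 against 5.14 and 7.62, and Fads2, the delta-6 desaturase, 8.11 against 0.97 and 0.74. Acaca, the carboxylase that commits acetyl-CoA to fatty acids, had 6.96 against 1.66 and 1.16 FPKM. Acat2 of the cholesterol branch had 31.06 against 7.31 and 11.66 FPKM. FPKM also depend on the transcript length that count and FPKM imply. In replicate 1 that length was 997 bases for Acaca, against 3445 in WT replicate 1. For Elovl6 it was 3872 bases, against 4640 and 5846 in replicates 2 and 3. Acaca had a log2 fold change against WT of -0.29 from counts (edgeR) and 0.28 from FPKM (limma). By FPKM, replicate 1 was the highest of its genotype for 5 of the 8 tested branch members (36.1% of all tested genes) and replicate 3 the lowest for 6 of 8 (36.8% of all). The median coefficient of variation of the 8 genes was 51.9% in Cxcl10-/-, 13.8% in Cxcr3-/- and 25.9% in WT. That of the tested cholesterol branch genes was 52.9% in Cxcl10-/-, 37.7% in Cxcr3-/- and 27.5% in WT, beside 38.6% in Cxcl10-/-, 24.5% in Cxcr3-/- and 20.2% in WT over all tested genes. For Acss2, Acaca, Elovl6 and Fads2 the log2 fold changes of Cxcl10-/- against WT were between -0.29 and 0.30, with SEs of 0.39 to 0.83. A difference well above its error can still miss the threshold, as Fads1 and Scd2 did, so larger changes are not excluded either.

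The branch levels put these results side by side. The cholesterol branch, as the mean of log2(FPKM + 1) over its 18 enzymes, was 2.80, 2.87 and 3.02 in Cxcl10-/-, 3.41, 3.56 and 3.42 in Cxcr3-/-, and 3.68, 3.73 and 3.40 in WT. All 3 Cxcl10-/- libraries were below the other 6, and Cxcr3-/- overlapped WT through WT replicate 3. The fatty acid branch was 3.70, 2.98 and 2.65 in Cxcl10-/-, 3.56, 3.39 and 3.38 in Cxcr3-/-, and 3.27, 3.34 and 3.22 in WT. Here the Cxcl10-/- libraries spanned the full range of the other genotypes and beyond. Summed FPKM of the cholesterol branch were 175.9 ± 8.46 in Cxcl10-/-, 269.9 ± 31.2 in Cxcr3-/- and 328.1 ± 50.0 in WT (SD, n = 3 each). Those of the fatty acid branch were 88.82 ± 25.6 in Cxcl10-/-, 135.0 ± 10.9 in Cxcr3-/- and 114.1 ± 3.39 in WT. Over all tested genes the mean log2(FPKM + 1) hardly differed, at 3.81 ± 0.06 in Cxcl10-/-, 3.79 ± 0.02 in Cxcr3-/- and 3.76 ± 0.04 in WT. Since the members were chosen with results known, these levels carry no test, and that of the difference between the branches was not made.

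**Figure D4:**
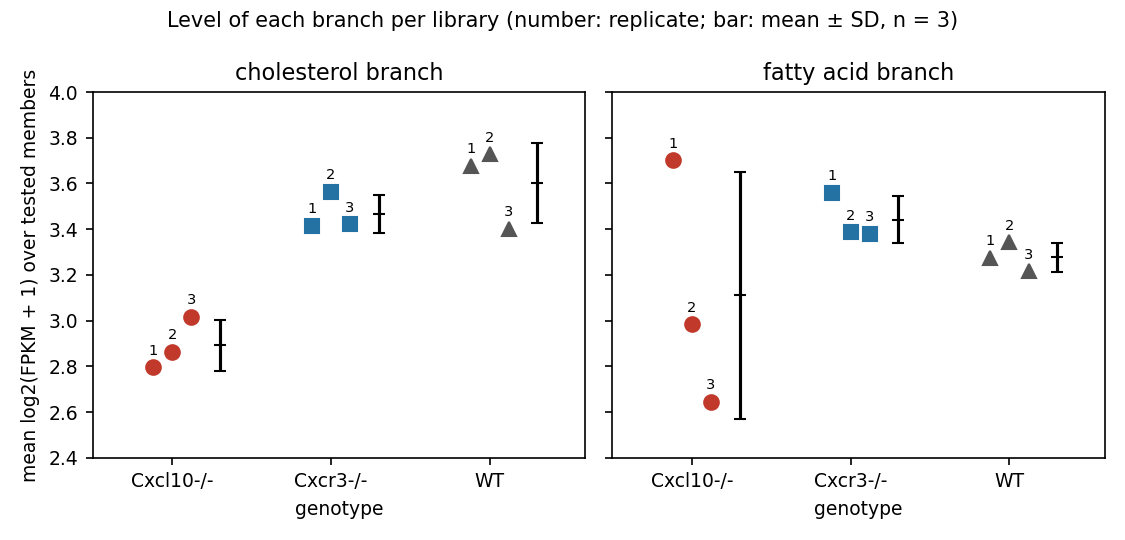
Mean log2(FPKM + 1) over the 18 cholesterol branch enzymes (left) and the 8 tested fatty acid branch genes (right) in each library, numbered by replicate, with the mean ± SD of each genotype (n = 3; the axis starts at 2.4). The Cxcl10-/- libraries lie together at 2.80 to 3.02 on the left and are spread from 2.65 to 3.70 on the right.

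None of the 5 SREBP factors and sensors passed in any comparison in edgeR, limma or DESeq2. In Cxcr3-/- against WT, though, DESeq2 gave 4 of the 5 no adjusted p. At an unadjusted p under 0.05 edgeR listed 1, Insig2, in Cxcl10-/- against WT. Srebf2, the gene of SREBP-2, had 15.87, 9.73 and 14.31 FPKM in Cxcl10-/-, 10.97, 17.28 and 14.26 FPKM in Cxcr3-/-, and 14.15, 14.72 and 15.06 FPKM in WT. In FPKM the genotypes overlapped throughout. The transcript lengths implied by count and FPKM were 4422, 5077 and 3513 bases in Cxcl10-/- and 5076 to 5077 in WT. Scaled to library total, Srebf2 counts were thus lower in every Cxcl10-/- library than in any WT library. Its log2 fold change in Cxcl10-/- against WT was -0.48 ± 0.25 from the counts (SE; edgeR, adjusted p = 0.257) and -0.16 from the FPKM (limma, adjusted p = 0.77). Srebf1, which encodes SREBP-1a and SREBP-1c, had 4.21, 6.99 and 2.51 FPKM in Cxcl10-/-, 8.31, 4.20 and 5.38 FPKM in Cxcr3-/-, and 6.00, 3.95 and 5.70 FPKM in WT (log2 fold change in Cxcl10-/- -0.34 ± 0.43). The genotypes overlapped for Srebf1 as well. Scap, the escort protein, had 6.39, 5.83 and 10.70 FPKM in Cxcl10-/-, 7.56, 5.01 and 9.15 FPKM in Cxcr3-/-, and 5.14, 7.07 and 9.06 FPKM in WT, with a log2 fold change of 0.04 ± 0.38 in Cxcl10-/-.

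The retention proteins did not share a direction. Insig1, itself a target of SREBPs, had 5.34, 2.76 and 8.30 FPKM in Cxcl10-/-, 4.37, 7.38 and 7.39 FPKM in Cxcr3-/-, and 15.54, 11.13 and 5.26 FPKM in WT. WT was the more variable group for Insig1 and overlapped both knockouts (log2 fold change -1.04 ± 0.52 in Cxcl10-/-, SE; edgeR, adjusted p = 0.253). Insig2, whose liver transcript is known to be repressed by insulin, ran the other way, at 24.21, 22.78 and 19.20 FPKM in Cxcl10-/-, 15.11, 16.10 and 11.80 FPKM in Cxcr3-/-, and 9.71, 15.48 and 9.59 FPKM in WT. In FPKM every Cxcl10-/- library was above the other 6. The transcript length implied by count and FPKM was 1524 bases in Cxcl10-/- replicate 3, against 2697 to 2698 in Cxcr3-/-. Scaled to library total, Insig2 counts in that replicate were below those of all Cxcr3-/- libraries and of WT replicate 2. The log2 fold change of 0.85 ± 0.32 against WT did not pass (SE; edgeR, adjusted p = 0.132), but it did without Cxcl10-/- replicate 3, at 1.12 (adjusted p = 0.0362). Stard4, which carries cholesterol between membranes, and Lpin1, a phosphatidate phosphatase, had log2 fold changes of -0.26 ± 0.22 and -0.84 ± 0.38 in Cxcl10-/- and did not pass (edgeR, adjusted p = 0.506 and 0.198).

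In Cxcr3-/- LT-HSCs no difference from WT was detectable in the pathway at this depth and number of mice. No member passed in edgeR, limma or DESeq2. In either direction edgeR and limma called 0% of the 10866 tested genes. DESeq2 called 2.07% of the 3282 genes to which it gave an adjusted p. DESeq2 gave 27 of the 33 members no adjusted p. At an unadjusted p under 0.05 edgeR listed 1 member, Msmo1, as lower and none as higher, beside 3.90% and 2.37% of all tested genes. Without overlap, 3 members lay lower in Cxcr3-/- than in WT (Msmo1, Fdps and Mvk) and 2 higher (Tm7sf2 and Acly), beside 7.63% and 12.1% of all tested genes. The median log2 fold change was -0.24 over the cholesterol branch, 0.26 over the fatty acid branch and 0.02 over all tested genes. Mvk and Mvd had the widest errors, with -1.51 ± 1.01 and 1.89 ± 1.53 (log2, SE), at levels of a few FPKM. A p that misses the threshold does not show that the genotypes act alike. For Sqle, for example, the difference was -0.26 ± 0.30 (log2, SE).

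The knockouts were also compared directly, a contrast that shares the Cxcl10-/- libraries with the one above. Here 5 members were higher in Cxcr3-/- than in Cxcl10-/- and none was lower, beside 5.10% and 5.41% of all tested genes. Idi1 differed by 2.23 ± 0.28, Nsdhl by 1.84 ± 0.46, Sqle by 1.53 ± 0.31, Msmo1 by 1.11 ± 0.26 and Scd2 by 1.04 ± 0.26 on the log2 scale (SE), with adjusted p from edgeR of 0.00137, 0.0285, 0.0118, 0.0226 and 0.0283. Idi1 passed under all 19 alternative settings. Sqle was lost only when the 6 libraries compared were fitted alone (adjusted p = 0.0592). Scd2 was lost under 4, Msmo1 under 6 and Nsdhl under 10 of the 19. Without Cxcr3-/- replicate 3 only 2 members passed. At an unadjusted p under 0.05 there were 9 members higher and none lower, beside 12.5% and 13.7% of all tested genes. Without overlap in FPKM, 8 were higher and 1 (Insig2) was lower, beside 12.7% and 16.4%. The medians were 0.66 over the cholesterol branch, 0.17 over the fatty acid branch and -0.05 over all tested genes.

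Genes around the pathway were looked at as lists of non-members, whose counts are to be read beside the shares over all genes. In Cxcl10-/- against WT edgeR called 3.52% higher and 3.70% lower (12.3% and 12% at an unadjusted p under 0.05). For limma these shares were 6.10% and 3.18%, and for DESeq2 6.66% and 7.23% of the 10782 genes with an adjusted p. In Cxcr3-/- against Cxcl10-/- edgeR called 5.10% higher and 5.41% lower. Of 9 genes of SREBP processing and turnover, none passed against WT in either knockout in edgeR or limma. DESeq2 called none in Cxcl10-/-, and in Cxcr3-/- it gave all 9 no adjusted p. At an unadjusted p under 0.05 edgeR listed 1 as lower in Cxcl10-/-. Sec24d, a coat protein of the vesicles that leave the endoplasmic reticulum, was higher in Cxcr3-/- than in Cxcl10-/-: 13.47, 7.62 and 7.81 FPKM in Cxcr3-/-, against 1.32, 4.50 and 1.58 FPKM in Cxcl10-/-. The log2 difference was 2.00 ± 0.47 (SE; edgeR, adjusted p = 0.0237), and WT lay at 4.19, 5.29 and 4.94 FPKM. Of 14 tested genes of sterol efflux, storage and lysosomal release, none passed against WT in edgeR or limma. DESeq2 called 1 higher and 1 lower in Cxcl10-/-, and edgeR listed 1 higher and 2 lower there at an unadjusted p under 0.05. Npc2, which hands cholesterol out of lysosomes, was lower in Cxcr3-/- than in Cxcl10-/-, at 31.86 ± 7.79 FPKM in Cxcr3-/- against 56.52 ± 5.92 FPKM in Cxcl10-/- (SD, n = 3 each; edgeR, adjusted p = 0.0307), with 32.56 ± 3.09 FPKM in WT. None of the 14 enzymes that use isoprenoids for prenylation, dolichol or ubiquinone passed in edgeR in any of the 3 comparisons. At an unadjusted p under 0.05, 2 were higher and 1 was lower in Cxcl10-/- than in WT, and limma and DESeq2 each called 2 higher.

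Of 21 tested genes of further fatty acid synthesis and activation, Me1 was lower and none was higher in Cxcl10-/- than in WT by edgeR. Over all tested genes those shares were 3.70% and 3.52%. In this list limma called 1 higher and 0 lower, and DESeq2 1 higher and 4 lower. Me1 encodes the malic enzyme that supplies NADPH to lipid synthesis. It had 0, 5 and 3 counts in Cxcl10-/-, 124, 89 and 87 counts in Cxcr3-/-, and 34, 115 and 130 counts in WT. Nearly no Me1 read was left in Cxcl10-/- (edgeR, adjusted p = 0.0254 for Cxcl10-/- against WT and 0.0156 for Cxcr3-/- against Cxcl10-/-). Of 17 tested genes of fatty acid oxidation, Etfb, a subunit of the flavoprotein that takes electrons from the acyl-CoA dehydrogenases, was higher in Cxcl10-/- at 930.3 ± 161.8 FPKM, against 474.4 ± 99.7 FPKM in Cxcr3-/- and 400.5 ± 31.4 FPKM in WT (SD, n = 3 each). Its log2 fold change in Cxcl10-/- against WT was 1.13 ± 0.20 (SE; edgeR, adjusted p = 0.00783), and no gene of that list was lower by edgeR (limma 1 higher and 0 lower; DESeq2 2 higher and 1 lower).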

How the data were processed

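RNA of sorted LT-HSCs was measured in 9 libraries, 3 per genotype, each from a separate mouse per the study's design text. The authors deposited 1 table with expected counts and FPKM per gene and library, per the file headers. The counts are treated here like expected counts, because not all deposited values are whole (87.1% are exactly whole as written). Of tools, fastp, RSEM, StringTie and HISAT2 appear in the submitters' processing notes; their versions, the annotation and the build were not given. Groups were taken from the genotype labels. Members and lists were chosen with earlier results of these data known.

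Expected counts were rounded to whole numbers. All genes averaging 1 FPKM or more across the 9 libraries entered edgeR 4.0.16 (quasi-likelihood test, TMM factors) in R 4.3.3, with 1 mean per genotype and no block. P-values were Benjamini-Hochberg adjusted over the 10866 genes, and genes passed at an adjusted p under 0.05. Differences are the first-named genotype minus the second. Errors of log2 fold changes are standard errors from the fit, and errors of FPKM are SDs (n = 3). Overlap between libraries was judged on FPKM throughout. Of the members, those that passed in any comparison, those without overlap between genotypes at a log2 fold change of at least 1 and a mean of at least 5 FPKM, and the SREBP factors and sensors are given by library. Up to 4 genes per further list were named where they passed, by p.

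The 19 alternatives were median-of-ratios size factors, the mitochondrial genome left out, DESeq2 1.42.0, limma 3.58.1 on log2(FPKM + 1) and log2(FPKM + 0.1), edgeR's own filter, no filter, only the 6 libraries compared, a replicate block, a correction for GC content and length (GENCODE M21), and each library left out. Reads carry no molecular identifiers, so depth bounds counting error only. Gene coordinates are those of GENCODE M21, and 250 bases before each RefSeq start were searched for motifs.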

Additional observations from a re-analysis of the deposited data

How the results depend on the processing

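For the 13 members given by library, the 19 alternatives gave 741 log2 fold changes over the 3 comparisons: 680 kept direction and side of the threshold, 23 no longer passed, 13 passed newly and 25 changed sign, none of them called in either fit. With the GC content and length correction these were Scap at -0.167 in Cxcl10-/- against WT, 0.214 in Cxcr3-/- against Cxcl10-/- and 0.047 in Cxcr3-/- against WT, Insig1 at -0.034 in Cxcr3-/- against Cxcl10-/-, and Cyp51 at 0.003, Scd2 at -0.012 and Srebf1 at -0.017 in Cxcr3-/- against WT. With the replicate block they were Scap at -0.008 in Cxcl10-/- against WT and Cyp51 at 0.012 in Cxcr3-/- against WT, and in limma Scap at 0.022 and 0.024 in Cxcr3-/- against WT. The leave-one-out ranges that cross 0 in Cxcr3-/- against WT were -0.275 to 0.191 for Cyp51, -0.543 to 0.018 for Hmgcs1, -0.249 to 0.175 for Scap, -0.003 to 0.199 for Scd2, -0.156 to 0.293 for Srebf1 and -0.281 to 0.067 for Srebf2. Scap ranged over -0.328 to 0.237 in Cxcl10-/- against WT and -0.288 to 0.301 in Cxcr3-/- against Cxcl10-/-, where Insig1 ranged over -0.092 to 0.719.

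Cxcl10-/- against WT: 7 members were lower under DESeq2 and 7 with no filter (leave-one-out 3 to 6), 0 to 1 were higher in leave-one-out fits (Insig2 without Cxcl10-/- replicate 3), and 785 genes in all were called, but 1498 under DESeq2, 1183 with no filter, 414 with only the 6 libraries and 193 to 1003 in leave-one-out fits. Leaving out a WT library gave the low counts: 229, 193 and 253 without WT replicates 1, 2 and 3. The GC content and length correction moved the calls to 605 higher and 149 lower, limma with a pseudocount of 1 to 663 higher and 345 lower, against 383 higher and 402 lower in edgeR, and the correction moved the median of all genes to 0.23, against 0.06 without it. The fatty acid branch median of -0.14 was -0.27 in limma with a pseudocount of 0.1, -0.34 with the replicate block, -0.04 with the correction and -0.40 to -0.04 in leave-one-out fits. The cholesterol branch median of -0.83 was -0.60 and -0.67 in limma with a pseudocount of 1 and 0.1, -0.62 with the GC content and length correction and -0.99 to -0.71 in leave-one-out fits.

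Cxcr3-/- against WT: 0 genes were called by edgeR, 68 by DESeq2, 38 with no filter and 0 to 6 in leave-one-out fits. The cholesterol branch median of -0.24 ranged over -0.38 to -0.10 in leave-one-out fits. That of the fatty acid branch, 0.26, was 0.34 in limma with a pseudocount of 0.1, 0.17 with the GC content and length correction and 0.11 to 0.29 in leave-one-out fits. Cxcr3-/- against Cxcl10-/-: 5 members were higher, but 1 with only the 6 libraries, 3 with the GC content and length correction and 2 to 6 in leave-one-out fits. Over all genes 1142 were called, 1814 by DESeq2, 423 with only the 6 libraries and 423 to 1407 in leave-one-out fits. The cholesterol branch median of 0.66 was 0.89 in limma with a pseudocount of 0.1 (leave-one-out 0.66 to 0.92). That of the fatty acid branch, 0.17, was 0.66 there and 0.018 to 0.61 in leave-one-out fits, highest without Cxcl10-/- replicate 1. Causes of these moves were not tested, beyond the smaller number of libraries in some fits.

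With a replicate block, 442 genes were called in Cxcl10-/- against WT with the same 4 members lower, and 3 members were higher in Cxcr3-/- against Cxcl10-/- (without Msmo1 and Nsdhl). Same-numbered libraries did not deviate together more than others (correlations of -0.0836 to 0.0191, against -0.0377 to 0.082 for different numbers). With 3 libraries per genotype, these correlations cannot show whether same-numbered samples share a litter or a day. With 3 mice per genotype and SEs near 1 for Mvk, Mvd, Hsd17b7 and Dhcr7, changes of a few fold in the weak members were not detectable.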

Other observations

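The deposited counts and FPKM of a gene imply a transcript length (count divided by FPKM and library total), and for some members that length was not the same in every library. It was compared where a library had at least 2 FPKM. For Msmo1 it was 2044 bases in all 9 libraries, and for Scd2 5454 to 5456. For Sqle it was 2634 to 2635 bases in the Cxcl10-/- libraries. In the Cxcr3-/- and WT libraries it was 2755 to 2758 bases. For Srebf2 it was 3513 bases in Cxcl10-/- replicate 3 and 4422 in replicate 1, against 5076 to 5078 in the Cxcr3-/- and 5076 to 5077 in the WT libraries. For Lpin1, the phosphatidate phosphatase, it was 1921 bases in Cxcl10-/- replicate 1 and at least 5431 in the other 2 Cxcl10-/- libraries. Among the Cxcr3-/- libraries it was 4034 bases in replicate 1 and 5444 and 5469 in the others, and the WT libraries lay at 5350 to 5554. For Insig2 it was 1524 bases in Cxcl10-/- replicate 3 and 2652 and 2697 in the other 2, against 2698, 2697 and 2697 in Cxcr3-/- and 2545, 1978 and 2574 in WT. Acaca had 997 bases in Cxcl10-/- replicate 1 and 3445 in WT replicate 1, the only 2 libraries above the limit.

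Of the 25 members with at least 2 FPKM in every library, 16 had a ratio of the longest to the shortest implied length under 1.1, or 64.0%, beside 63.9% of 7343 tested genes. For Lpin1 the log2 fold change of Cxcl10-/- against WT was -0.84 from counts (edgeR) and -0.16 from FPKM (limma with a pseudocount of 1), and for Srebf2 these were -0.48 and -0.16. For Nsdhl, whose implied length was nearly constant, they were -2.38 and -2.05. The 2 values also differ in the pseudocount and the scaling, and what sets the gap between them was not tested. Which transcripts the lengths stand for was not analysed here.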
